A study of Mus musculus with 42 samples.

Results

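The 10 genes described here encode serotonin receptors and were chosen by symbol: Htr1a, Htr1b, Htr1d, Htr1f, Htr2a, Htr2c, Htr3a, Htr4, Htr5b and Htr7. All 10 were listed among the 37410 genes measured in the lateral habenula (LHb) and among the 40905 genes measured in the other brain regions, and all 10 passed the filter on low counts in every comparison. RNA was sequenced from 42 mouse brain tissue libraries, 12 from the LHb and 6 each from the ventral hippocampus (vHippo), medial prefrontal cortex (mPFC), nucleus accumbens (NAc), ventral tegmental area (VTA) and lateral hypothalamus (LH). The mice were either naive or had undergone chronic restraint stress (CRS), and every mouse had a forced swim test (FST) 2 days before it was killed. The FST scores the time a mouse floats without swimming. For the LHb only, the labels split both groups by that score into 4 groups of 3 libraries: naive low (immobile for under 50 s), naive high (between 50 and 80 s), CRS low (between 50 and 110 s) and CRS high (above 110 s). A CRS low mouse and a naive high mouse could therefore have had the same score. The libraries of the other regions formed 3 naive and 3 CRS libraries per region with no FST class. Strain, sex and age are not given in the labels used here, and the labels do not say whether a library came from 1 animal or a pool, so p-values measure the spread between these libraries. Nor do they say whether libraries of different regions came from the same mice, and the region tests treat the 30 libraries as independent.

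Serotonin is made by neurons of the raphe nuclei, whose axons reach all 6 regions, and it acts on a large receptor family. The Htr1 receptors couple to inhibitory Gi/o proteins and lower cyclic AMP, with Htr1a acting both as the autoreceptor on raphe cell bodies and as a receptor on target neurons, and Htr1b and Htr1d acting largely on axon terminals. Htr2a and Htr2c couple to Gq and phospholipase C, Htr4 and Htr7 couple to Gs and raise cyclic AMP, and Htr3a encodes the subunit that every ligand-gated serotonin channel needs. Htr5b is the least studied of the 10, is functional in rodents but not in humans, and its coupling is not settled. The LHb is a small epithalamic nucleus that inhibits midbrain dopamine and serotonin neurons and is studied for its role in aversion and depression-like behaviour in rodents.

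Total counts ranged from 53143878 to 81384893 per library. Gene levels are given as FPKM, fragments scaled to transcript length and library size, as deposited, and tests used the deposited counts. In bulk tissue, fewer cells of a type and less RNA per cell cannot be told apart. Markers of the habenula, NAc and LH bore out those dissections in outline. Gpr151, a habenular receptor, was at 159 to 235 FPKM in the LHb and below 1 elsewhere. Drd1, the striatal dopamine receptor, was at 25.5 to 62.0 FPKM in the NAc. Pmch, the precursor of melanin-concentrating hormone, was at 169.9 to 1527 FPKM in the LH. The LHb libraries also held the medial habenula, the adjacent nucleus, whose marker Tac2 was at 122 to 214 FPKM and whose marker Chrnb4 was at 45.6 to 67.4 FPKM. The 6 hypothalamic neuron markers summed to 228 to 2116 FPKM in the LH. In the VTA they summed to 1.57 to 192 FPKM, with a median of 5.15. Several libraries stood apart from their region. The LHb libraries naive low 1, CRS low 1 and CRS high 1 had 6834, 4389 and 2797 FPKM of Ttr, the choroid plexus transthyretin gene, against 7.44 to 95.3 FPKM in the other 9. In 4 LHb libraries, naive high 3, CRS low 2, CRS high 2 and CRS high 3, the pancreatic protease gene Prss2 was at 36.9 to 58.9 FPKM, and it was listed at 0 in the other 8. The VTA library naive 3 had 113 FPKM of Tph2, the serotonin synthesis enzyme, and naive 2 had 1.63 FPKM of Slc6a3, the dopamine transporter, against 52.3 to 552 FPKM in the other 5. The NAc libraries naive 1, CRS 1 and CRS 2 had 179.7, 67.4 and 63.1 FPKM of Slc17a7, the cortical glutamate transporter, against 0.507 to 3.54 FPKM in the other 3.

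Each region had its own mixture of serotonin receptor transcripts. In the LHb, Htr5b made up 56.4% ± 6.7 (SD, n = 12) of the summed FPKM of the 10 genes and Htr2c another 26.8% ± 6.6. In the NAc, VTA and LH, Htr2c was the leading receptor, with 38.1% ± 8.4, 42.2% ± 8.0 and 34.4% ± 3.5 of the sum (n = 6 each). The mPFC was led by Htr2a, with 26.0% ± 5.8, followed by Htr1a with 19.3% ± 3.9. In the vHippo, Htr2c was at 24.6% ± 5.5, Htr3a at 18.7% and Htr1a at 17.7% ± 4.4. The summed FPKM was 76.5 ± 4.2 in the LHb, against 22.2 ± 4.1 in the mPFC and 43.0 ± 5.5 in the NAc. The LHb values come from a table that was prepared separately, so they were set beside the other regions without a test.

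**Figure D1:**
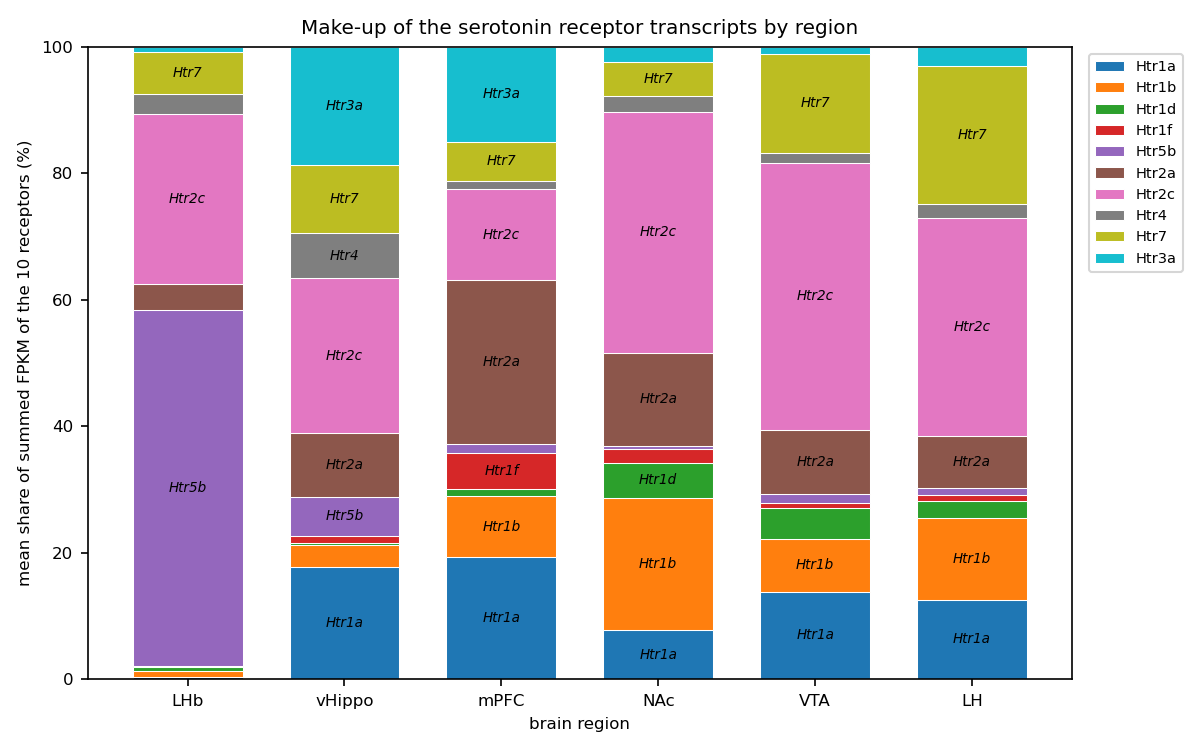
Mean share (%) of the summed FPKM of the 10 serotonin receptor genes taken by each gene, for 12 LHb libraries and 6 libraries of each other region. Htr5b fills 56.4% of the LHb bar, and Htr2c is the widest band in the NAc, VTA and LH.

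Across the 5 regions measured in 1 table, all 10 receptors differed by region at an adjusted p under 0.05 (edgeR quasi-likelihood F test with Benjamini-Hochberg adjustment), beside 49.2% of the 24244 genes tested. The adjusted p ran from 6.06e-11 for Htr3a to 0.0493 for Htr1a. Between single pairs of regions, 55 of the 100 receptor comparisons passed, against 22% of all such comparisons over all genes. The pair with the highest count was the NAc and vHippo, where 9 of 10 receptors passed beside 15.9% of genes, followed by the LH and mPFC with 8 of 10 beside 28.8%. The NAc and VTA differed in 6 of 10 receptors beside 32.6% of genes, the LH and vHippo in 6 beside 26.3%, and the mPFC and vHippo also in 6, beside 7.58%. The vHippo and VTA differed in 5 beside 32.8%, the mPFC and VTA in 5 beside 33.7%, the mPFC and NAc in 5 beside 15.4%, and the LH and NAc in 4 beside 23.4%. The LH and VTA had the lowest count, 1 of 10 receptors beside 4.03% of genes. By receptor, the count of region pairs that passed, out of 10, was 9 for Htr3a, 7 for Htr1b and Htr4, 6 for Htr1d, Htr1f and Htr7, 5 for Htr2c and Htr5b, and 2 for Htr1a and Htr2a. For any difference by region, the Htr1a and Htr2a calls were the fragile ones. Leaving out 1 library ended the Htr1a call in 25 of 30 refits, with adjusted p between 0.00202 and 0.12, and the Htr2a call in 3 of 30, when LH CRS 3, NAc CRS 1 or mPFC naive 1 was left out, with adjusted p up to 0.066. In the naive libraries alone, 30 of the 100 pair comparisons passed.

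**Figure D2:**
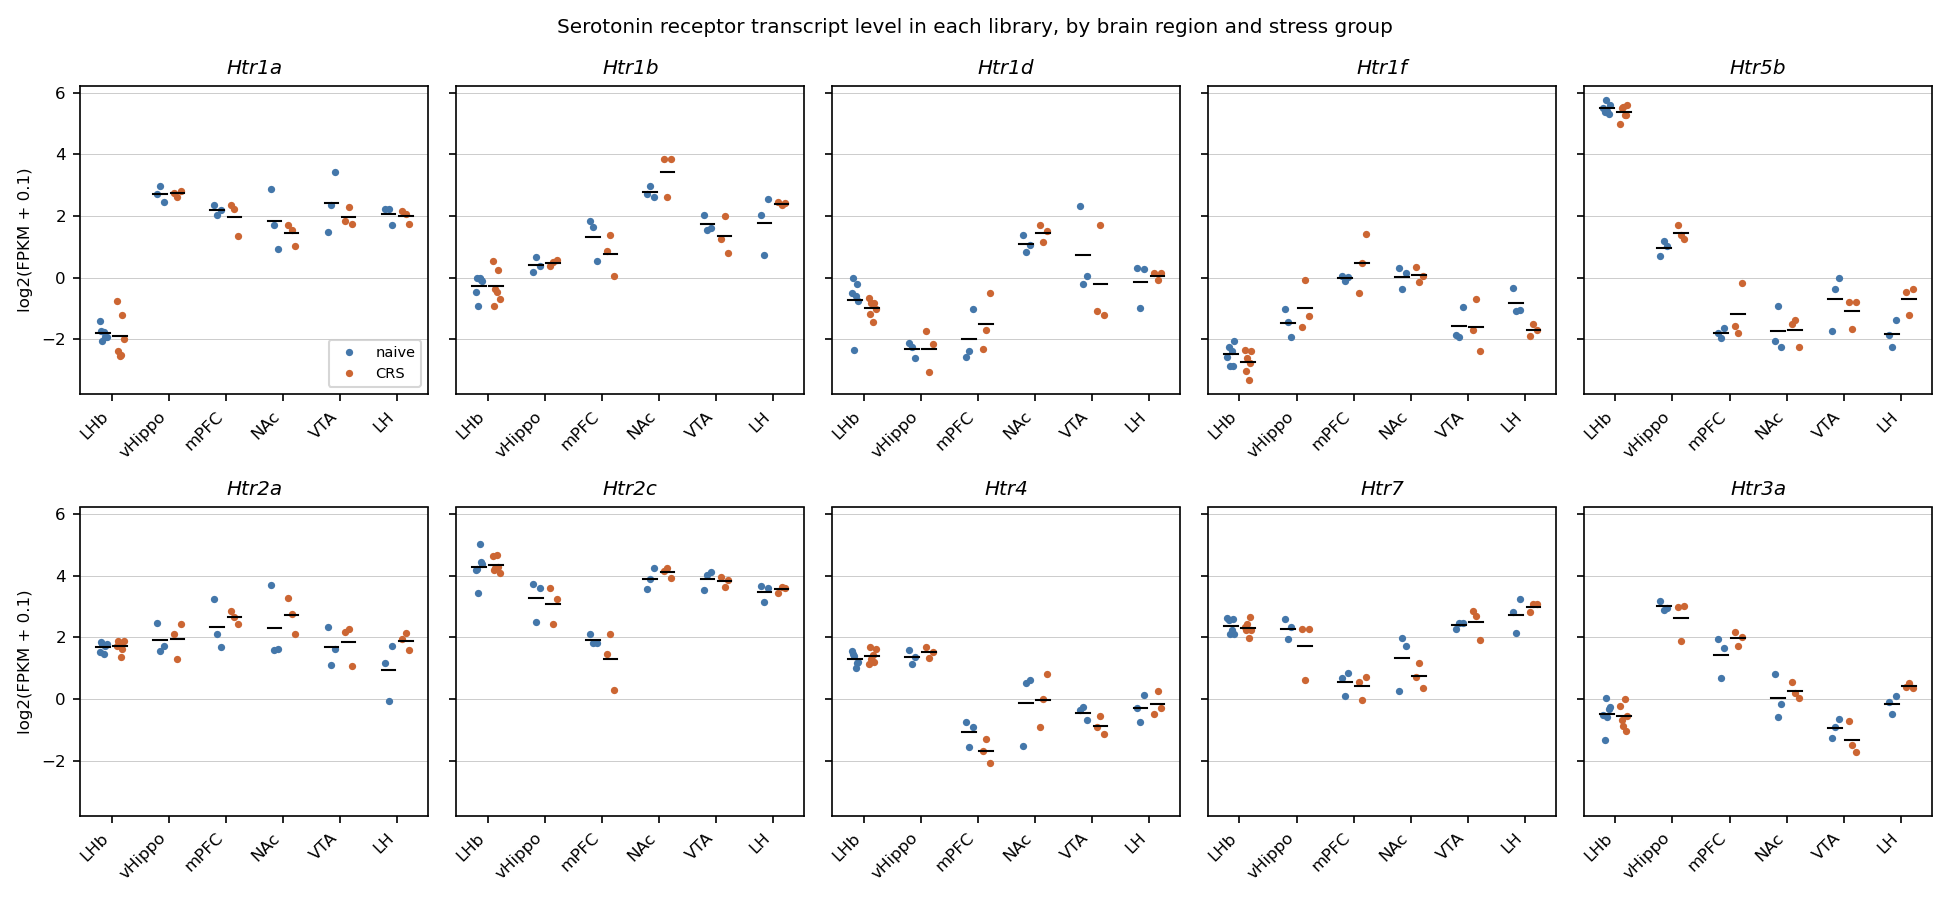
Level of each receptor gene in every library on a log axis, log2(FPKM + 0.1), by region and stress group (blue, naive; orange, CRS; black bars, group means). Htr5b stands far above its level elsewhere in the LHb, where Htr1a, Htr1b and Htr1f have their lowest means, while the naive and CRS points of a region lie over each other for most genes.

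Among the Htr1 receptors, Htr1a, the autoreceptor of serotonin neurons, was the gene the LHb had least of relative to the other regions. Its lowest, median and highest values over the 12 LHb libraries were 0.0735, 0.164 and 0.495 FPKM, and every one of the 30 other libraries was higher, from 1.79 FPKM upward. The vHippo had the highest mean, 6.51 ± 0.79 FPKM (SD, n = 6), and ranged from 5.32 to 7.67. The VTA followed at 4.99 ± 2.93, the mPFC at 4.25 ± 0.97, the LH at 4.01 ± 0.65 and the NAc at 3.35 ± 1.98. No neighbours in that order differed at an adjusted p under 0.05 (edgeR), and their ranges overlapped. The NAc was lower than the vHippo by a log2 difference of -0.98 ± 0.29 (SE, adjusted p = 0.021), a call that ended without NAc naive 2, NAc naive 3, NAc CRS 3 or vHippo naive 2. The LH was also below the vHippo past the threshold, a call that ended in 25 of 30 refits without 1 library (edgeR adjusted p up to 0.122). The highest Htr1a value of all, 10.7 FPKM, was in VTA naive 3. That library also had the highest Tph2 (113 FPKM against 0.487 to 27.3 in the other VTA libraries), Fev at 8.27 FPKM, a transcription factor of serotonin neurons, against 0.0575 to 1.28, and Slc6a4, the serotonin transporter, at 32.1 FPKM against 0.26 to 7.99. The other 5 VTA libraries lay between 2.7 and 4.99 FPKM of Htr1a. How far serotonin neurons in that dissection set its Htr1a level was not tested.

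Htr1b and Htr1d, the terminal receptors that are targets of the triptan drugs, were both highest in the NAc and moved together over the 30 libraries of the 5 regions (Pearson r = 0.77 on log2(FPKM + 0.1), a description across libraries that share their regions). Over the NAc libraries Htr1b was at 6.42, 7.82 and 6.06 FPKM in naive and 14.2, 6.06 and 14.4 FPKM in CRS mice. Each of these was above every library of the other regions, the highest of which was 5.73 FPKM in the LH. The NAc mean of 9.15 ± 4.02 FPKM stood over the LH mean of 4.46 ± 1.54 by a log2 difference of 1.08 ± 0.30 (edgeR adjusted p = 0.0107). The VTA, mPFC and vHippo came next, at 2.93 ± 0.91, 2.16 ± 0.98 and 1.27 ± 0.17 FPKM, with no difference between neighbours past the threshold, and the LHb was lowest at 0.766 ± 0.27. Exons of Htr1b overlap the antisense gene D430036J16Rik, and without a stated strand setting reads of the pair cannot be told apart. Htr1d was at 2.36 ± 0.54 FPKM in the NAc and 0.109 ± 0.062 in the vHippo, where counts were 4 to 40. It had the widest span of the Htr1 genes over the 5 tested regions, with a ratio of 21.7 between these means. In the VTA it was high in 2 libraries, 4.87 FPKM in naive 1 and 3.17 in CRS 2, against 0.327 to 0.945 in the other 4 libraries, so the VTA mean of 1.74 ± 1.86 was not distinct from the NAc mean (edgeR adjusted p = 0.595). The LH, at 0.919 ± 0.272, was above the mPFC at 0.244 ± 0.215 by 1.87 ± 0.61 on the log2 scale (edgeR adjusted p = 0.0229), a call that ended without mPFC naive 1, naive 2, CRS 1 or CRS 2.

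The promoters of this pair are shown because the genes share their highest region and moved together. Each is the 250 bases before the RefSeq start on GRCm38.p6, written 5' to 3', Htr1b from chr9:81633833-81634082 on the minus strand and Htr1d from chr4:136423274-136423523 on the plus strand. Capitals mark matches on either strand to CCAAT or GGGCGG.
Htr1b: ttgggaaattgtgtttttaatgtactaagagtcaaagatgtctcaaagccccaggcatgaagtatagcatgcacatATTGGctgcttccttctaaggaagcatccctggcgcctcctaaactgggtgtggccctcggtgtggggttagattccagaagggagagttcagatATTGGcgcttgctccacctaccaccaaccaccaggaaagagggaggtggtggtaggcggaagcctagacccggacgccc
Htr1d: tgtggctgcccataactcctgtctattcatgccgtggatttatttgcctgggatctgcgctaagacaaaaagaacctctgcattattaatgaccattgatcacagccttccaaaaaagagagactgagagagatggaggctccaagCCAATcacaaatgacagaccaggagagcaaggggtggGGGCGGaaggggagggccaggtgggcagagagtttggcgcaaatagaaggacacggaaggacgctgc
The Htr1b window held CCAAT 2 times, both on the opposite strand, and no GGGCGG. The Htr1d window held CCAAT 1 time and GGGCGG 1 time, and a window before its other listed start held GGGCGG 3 times and no CCAAT. Of all 32851 such windows, 33.8% held CCAAT and 32.7% held GGGCGG, so a match in either is common. Neither Htr1b nor Htr1d windows held TATAAA (12.4% of windows) or TGACGTCA (1.55%), the letters of a TATA box and of a cyclic AMP response element. Windows were matched for 7 of the 10 receptors.

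Htr1f, another Gi/o receptor, was low everywhere and highest in the mPFC and NAc, at 1.19 ± 0.72 and 0.959 ± 0.191 FPKM, which did not differ past the threshold (edgeR adjusted p = 0.699). The NAc was above the vHippo, at 0.373 ± 0.251, by 1.43 ± 0.39 on the log2 scale (edgeR adjusted p = 0.0131), a difference that was 1.31 with an adjusted p of 0.102 without the 3 NAc libraries high in Slc17a7. The LH and VTA followed at 0.346 ± 0.19 and 0.261 ± 0.164. In the LHb its values ran from 0 to 0.141 FPKM, or 0 to 24 counts, below the lowest mPFC and NAc library.

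Htr5b, on chr1:121509842-121528465 (minus strand, GRCm38), stood out in the LHb. In the 12 LHb libraries its lowest, median and highest values were 31.8, 43.4 and 54.0 FPKM, from 3575 to 7877 counts. The vHippo was next, with 1.52, 2.18 and 1.91 FPKM in naive and 3.15, 2.5 and 2.29 FPKM in CRS mice, and no library of the remaining regions passed 0.895 FPKM. The LHb mean was 19.1 times that of the vHippo, with no overlap between the LHb and any other region. The vHippo was in turn above the VTA, at 0.492 ± 0.267 FPKM, by 2.23 ± 0.40 on the log2 scale (edgeR adjusted p = 9.53e-05). Neighbours in the order VTA, LH, mPFC and NAc did not differ past the threshold. The NAc was below the VTA past it, a call that ended in 7 of 30 refits without 1 library (edgeR adjusted p up to 0.102).

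Within the LHb, the levels of Htr5b and Htr1b varied with habenular markers over the 12 libraries, given here as a description with no test because the markers were chosen after these values were seen. On log2(FPKM + 0.1), Pearson's r of Htr5b was 0.90 with Tac2, which encodes the peptide neurokinin B, 0.85 with Gpr151 and 0.55 with Chrnb4. Tac2 and Chrnb4 mark the medial habenula and Gpr151 the habenula more widely. Htr1b had r = -0.89 with Tac2, -0.58 with Gpr151 and -0.55 with Chrnb4. Without the 2 libraries farthest from the Tac2 median, CRS high 1 and naive high 3, r with Tac2 was 0.79 for Htr5b and -0.80 for Htr1b over 10 libraries. For Htr2c, r with Tac2 was -0.72 over all libraries and -0.45 without those 2, while it was -0.04 with Chrnb4. With Ttr, the choroid plexus gene, r over the 12 libraries was 0.71 for Htr2c, 0.44 for Htr1b and -0.56 for Htr5b. All FPKM of a library share 1 scaling, and the part of dissection in these values was not tested.

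Of the Gq-coupled receptors, Htr2c, on chrX:146962513-147197277 (plus strand, GRCm38), was lowest in the mPFC. Its lowest, median and highest values in the LHb were 10.7, 19.1 and 32.5 FPKM. The libraries high in Ttr had the highest of these values, and the part of choroid plexus in them was not tested. The NAc followed at 16.1 ± 2.8 FPKM, the VTA at 14.5 ± 2.1, the LH at 11.4 ± 1.5 and the vHippo at 9.6 ± 3.5, with no difference between neighbours past the threshold. The NAc was above the vHippo past it, a call that ended in 8 of 30 refits without 1 library (edgeR adjusted p up to 0.115). The mPFC, at 3.17 ± 1.16 with a highest library of 4.23, lay below every library of the other regions, and the vHippo was above it by 1.57 ± 0.24 on the log2 scale (edgeR adjusted p = 0.000144). In the vHippo, naive 2 and CRS 2 had 5.59 and 5.27 FPKM of Htr2c against 9.33 to 13.2 in the other 4, and they also had the highest Prox1, a marker of dentate granule cells, at 18.3 FPKM each against 5.24 to 8.63. The introns of Htr2c hold miRNA genes and a small nucleolar RNA gene, with no exon overlap.

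Htr2a, the cortical receptor on which classical psychedelics act, was at 6.55 ± 4.0 FPKM in the NAc, 5.91 ± 2.24 in the mPFC, 3.88 ± 1.29 in the vHippo, 3.55 ± 1.36 in the VTA, 3.17 ± 0.375 in the LHb and 2.87 ± 1.24 in the LH. No neighbours in the order of the 5 tested regions differed. The NAc mean rested on the 3 libraries high in Slc17a7. Naive 1, CRS 1 and CRS 2 had 12.9, 9.61 and 6.62 FPKM of Htr2a, and the other 3 NAc libraries had 2.94, 3.01 and 4.26. The summed level of the 8 cortical pyramidal neuron markers ranged from 23.5 to 268 FPKM in the NAc, against 165 to 420.1 in the mPFC. The LH was below the NAc by a log2 difference of -1.34 ± 0.40 (edgeR adjusted p = 0.016) in all libraries and -0.43 (adjusted p = 0.586) without those 3.

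The Gs-coupled receptors differed in place. Htr4 was highest in the vHippo, at 2.62 ± 0.38 FPKM, and nearly as high in the LHb, where the lowest, median and highest values were 1.92, 2.43 and 3.09 FPKM. The NAc was at 1.0 ± 0.57, below the vHippo by 1.40 ± 0.33 on the log2 scale (edgeR adjusted p = 0.00423), although without the 3 NAc libraries high in Slc17a7 the difference, NAc minus vHippo, was -0.80 with an adjusted p of 0.0926. Those 3 NAc libraries had 0.248, 0.435 and 0.902 FPKM of Htr4 and the other 3 had 1.33, 1.45 and 1.64, the reverse of Htr2a. The LH, VTA and mPFC followed at 0.776 ± 0.234, 0.549 ± 0.146 and 0.305 ± 0.139. The NAc was above the VTA past the threshold, a call that ended in 15 of 30 refits without 1 library (edgeR adjusted p up to 0.215). Htr7, a receptor with a known place in circadian and arousal circuits, was highest in the LH, at 7.4 ± 1.76 FPKM, and in the VTA, at 5.45 ± 1.19, which did not differ past the threshold (edgeR adjusted p = 0.471). The LHb had 5.05 ± 0.82 FPKM and the vHippo 4.26 ± 1.55. The vHippo was above the NAc, at 2.18 ± 1.14, by 1.03 ± 0.28 on the log2 scale (edgeR adjusted p = 0.0114), and the mPFC was lowest at 1.33 ± 0.33. In the vHippo, CRS 2 had 1.45 FPKM of Htr7 and the other 5 had 3.73 to 5.95.

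Htr3a, the channel subunit found mainly in a class of cortical and hippocampal interneurons, had the lowest adjusted p of the 10 for region differences. The vHippo was at 7.2 ± 1.86 FPKM, the mPFC at 3.32 ± 1.02, the NAc at 1.06 ± 0.40, the LH at 1.03 ± 0.27 and the VTA at 0.375 ± 0.139. The vHippo was above the mPFC by 1.11 ± 0.27 on the log2 scale (edgeR adjusted p = 0.0101), the mPFC above the NAc by 1.63 ± 0.27 (adjusted p = 0.000158) and the LH above the VTA by 1.38 ± 0.28 (adjusted p = 0.007). The NAc and LH did not differ past the threshold (edgeR adjusted p = 0.719). Over the 6 NAc libraries Pearson's r of Htr3a with Slc17a7 was 0.91, and the part of cortical tissue in the NAc level was not tested. The LHb lay between the LH and the VTA, at 0.618 ± 0.193.

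No receptor passed 0.05 for CRS against naive in any of the 6 regions. In the LHb, where 6 CRS and 6 naive libraries were compared, 0 of 10 receptors passed beside 1.17% of 23266 genes, and none had an unadjusted p under 0.05. The log2 fold changes ran from -0.61 ± 0.75 (SE) for Htr1f, the lowest of the 10, to 0.10 ± 0.12 for Htr4. Among the abundant LHb receptors, the SE was smaller for Htr5b than for Htr2c, whose naive libraries spread widely. Htr5b was at 44.9 ± 5.39 FPKM in naive and 41.4 ± 6.33 in CRS mice, a log2 fold change of -0.13 ± 0.11 (edgeR adjusted p = 0.685), and Htr2c was at 20.4 ± 7.09 and 20.5 ± 3.68, a change of 0.03 ± 0.17 (adjusted p = 0.953). Every receptor's naive and CRS ranges overlapped in the LHb, where 0.46% of genes had ranges apart.

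In the vHippo, VTA, NAc, mPFC and LH, each with 3 CRS and 3 naive libraries, 0 of 10 receptors passed, and 0% of genes did (edgeR). Unadjusted p was under 0.05 for 1 receptor in the NAc and 2 in the LH, and for 314 to 1896 genes per region. DESeq2 and limma also called 0 receptors, while DESeq2 called 43 genes in the vHippo, 8 in the VTA, 1 in the NAc, 24 in the mPFC and 336 in the LH, and limma 0. The receptor closest to a change in the NAc was Htr1b, with values given above, where CRS 1 and CRS 3 had more than any naive library and CRS 2 did not. Its log2 fold change was 0.82 ± 0.32 (edgeR adjusted p = 1), and 1.18 (adjusted p = 0.374) without the 3 NAc libraries high in Slc17a7. In the LH, Htr1f was at 0.689, 0.375 and 0.384 FPKM in naive and 0.167, 0.255 and 0.206 FPKM in CRS mice, a log2 fold change of -1.29 ± 0.43 (adjusted p = 0.456). Htr5b there was at 0.176, 0.109 and 0.283 FPKM in naive and 0.622, 0.329 and 0.675 FPKM in CRS mice, a change of 1.41 ± 0.54 (adjusted p = 0.47). Both genes stand at under 110 counts in every LH library. The naive and CRS ranges were apart for 3 receptors in the LH, namely Htr1f, Htr3a and Htr5b, beside 15.8% of genes, and for 1 in the vHippo, Htr5b, beside 14.1%. Marker lists of other cell types were apart in the same LH groups. The oligodendrocyte list summed to 576 to 752 FPKM in CRS and 845 to 2008 in naive mice, the microglial list to 26.2 to 32.2 and 35.0 to 39.7, the choroid plexus list to 5.61 to 10.8 and 16.7 to 24.2, the leptomeningeal list to 6.63 to 7.73 and 9.13 to 10.3, the dopamine neuron list to 30.6 to 37.9 and 14.0 to 29.9, and the serotonin neuron list to 18.3 to 22.0 and 7.31 to 18.2. Their part in the LH values was not tested. In the vHippo, the interneuron list summed to 172 to 270 FPKM in CRS and 281 to 287 in naive mice. The medial habenula list summed to 13.6 to 44.5 and 51.7 to 59.9 there, and the endothelial list to 16.7 to 17.3 and 15.2 to 16.2. Their part in the vHippo Htr5b values was not tested. The naive and CRS ranges overlapped for all 10 receptors in the VTA, NAc and mPFC, where 6.69%, 6.39% and 5.26% of genes were apart. Whether the effect of CRS differed among the 5 regions was tested directly, and 0 of 10 receptors passed beside 0% of 24244 genes (edgeR), with 0 at an unadjusted p under 0.05. DESeq2 called 27 genes for that question, none of them a receptor. The naive LH library 2 was low in several receptors and in hypothalamic markers alike: it had 1.56 FPKM of Htr1b against 3.97 to 5.73 in the others, 0.859 FPKM of Htr2a against 2.15 to 4.33, and 169.9 FPKM of Pmch against 604 to 1527. In the mPFC, CRS 3 had 1.13 FPKM of Htr2c against 2.64 to 4.23, 2.59 FPKM of Htr1f against 0.605 to 1.29 and 0.782 FPKM of Htr5b against 0.157 to 0.234, with 40.9 FPKM of Th, the dopamine synthesis enzyme, against 0.574 to 2.72. Whether those markers account for its receptor levels was not tested.

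**Figure D3:**
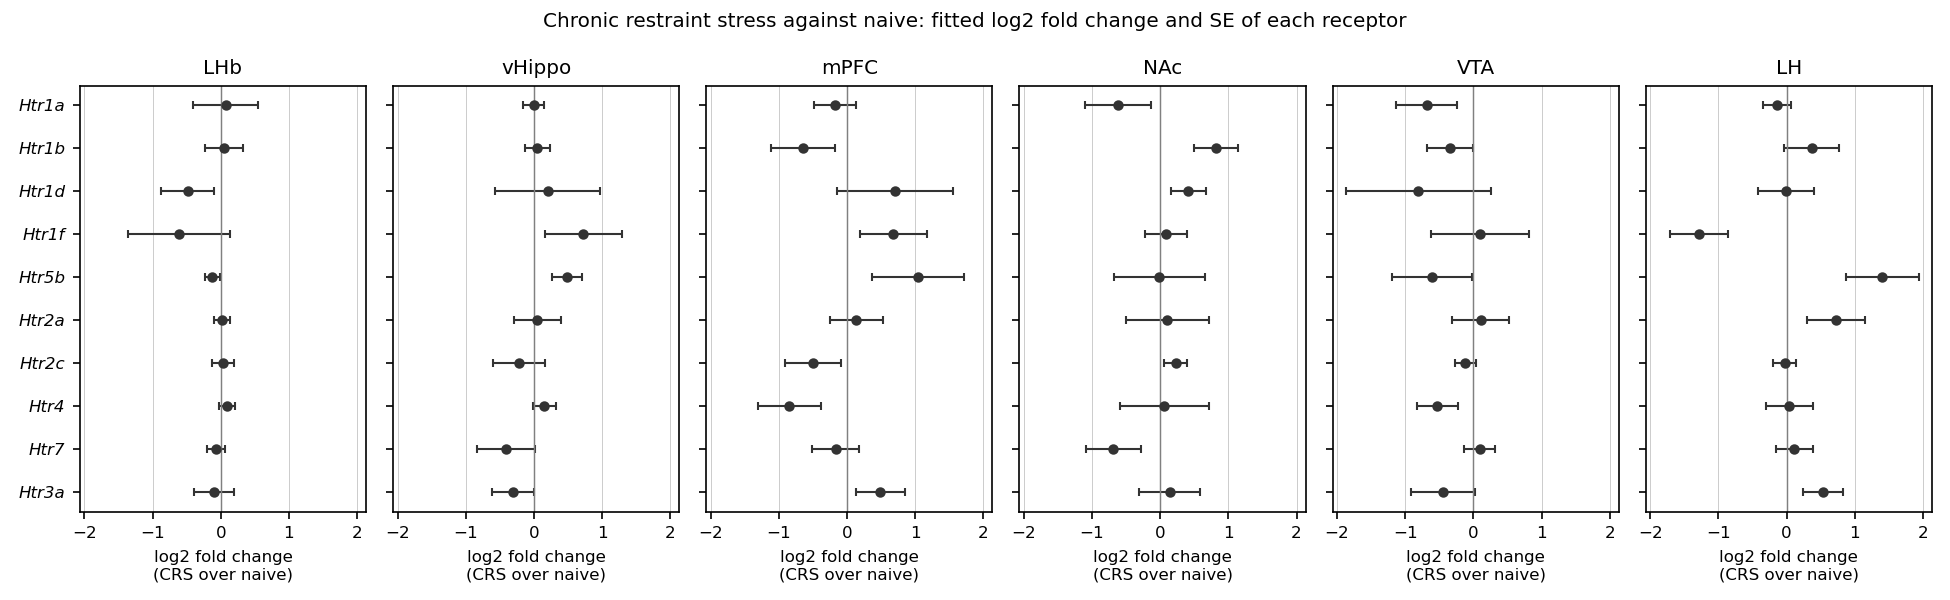
Fitted log2 fold change of CRS over naive for each receptor in each region, with bars of 1 SE (12 libraries in the LHb, 6 in each other region). The bars are short for abundant LHb receptors and reach over 1 log2 unit for Htr1d in the VTA. No point passed an adjusted p of 0.05.

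The FST classes of the LHb were compared next, to ask whether receptor levels went with immobility inside or across the stress groups. No receptor passed in any of the 7 comparisons. Naive high against naive low came nearest, with 0 of 10 receptors beside 3.07% of genes and 2 receptors at an unadjusted p under 0.05. Htr2c was at 32.5, 21.9 and 20.8 FPKM in naive low and 18.1, 18.7 and 10.7 FPKM in naive high, with no overlap. Such separation was common in this comparison: 2 of 10 receptors and 21.5% of all genes had naive low and naive high ranges apart. The log2 fold change was -0.62 ± 0.24 (edgeR adjusted p = 0.203). Of these 6 libraries the highest, naive low 1, was high in Ttr and the lowest, naive high 3, held Prss2. The part of either in the difference was not tested. The change was -0.38 (adjusted p = 0.432) without the 3 libraries high in Ttr and -0.40 (adjusted p = 0.59) without the 4 with pancreas transcripts. Htr4 was at 1.92, 2.14 and 2.21 FPKM in naive low and 2.88, 2.64 and 2.52 FPKM in naive high, again with no overlap, and its change was 0.40 ± 0.16 (edgeR adjusted p = 0.242). It was 0.35 without the choroid plexus libraries and 0.44 without the pancreas libraries. Other marker lists were apart in the same classes: the 5 endothelial markers summed to 26.3 to 39.3 FPKM in naive low and 18.4 to 19.99 in naive high, and the 4 microglial markers to 25.5 to 28.3 and 20.8 to 22.7. Mitochondrial genes took 7.13 to 7.43% of counts in naive low and 5.25 to 6.93% in naive high. Their part in the Htr2c and Htr4 values was not tested.

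Between CRS high and CRS low, which share their stress and differ in immobility, 0 of 10 receptors passed beside 0% of genes (edgeR), with 0 receptors and 494 genes at an unadjusted p under 0.05. DESeq2 called 2 genes there and limma 0, none of them receptors. The log2 fold changes of the receptors lay between -0.10 and 0.39. CRS high against naive low, the widest contrast in behaviour, gave 0 of 10 beside 3.67% of genes, with Htr4 at 0.29 ± 0.16 (adjusted p = 0.442) and Htr2c at -0.26 ± 0.24. CRS low against naive low gave 0 of 10 beside 2.19%, with Htr4 at 0.31 ± 0.16 (adjusted p = 0.549) and Htr2c at -0.29 ± 0.24. These 2 contrasts and the naive contrast share the naive low libraries, so their likeness is no separate result. CRS high and CRS low against naive high gave 0 of 10 beside 0% of genes each (edgeR), with 0 receptors at an unadjusted p under 0.05 in either, and with 1277 and 1785 genes there. DESeq2 called 21 and 43 genes, and limma 0 and 2. The test of whether the effect of stress differed by FST class gave 0 of 10 beside 0.202% of genes, with the lowest unadjusted p, 0.076, for Htr2c. The choroid plexus list summed to 49.0 to 59.6 FPKM in naive high and to 88.3 to 7126, 69.1 to 4614 and 20.7 to 2933 FPKM in naive low, CRS low and CRS high, and the pancreas list was at 0.127 FPKM at most in naive low but reached 389 or more in each other class.

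**Figure D4:**
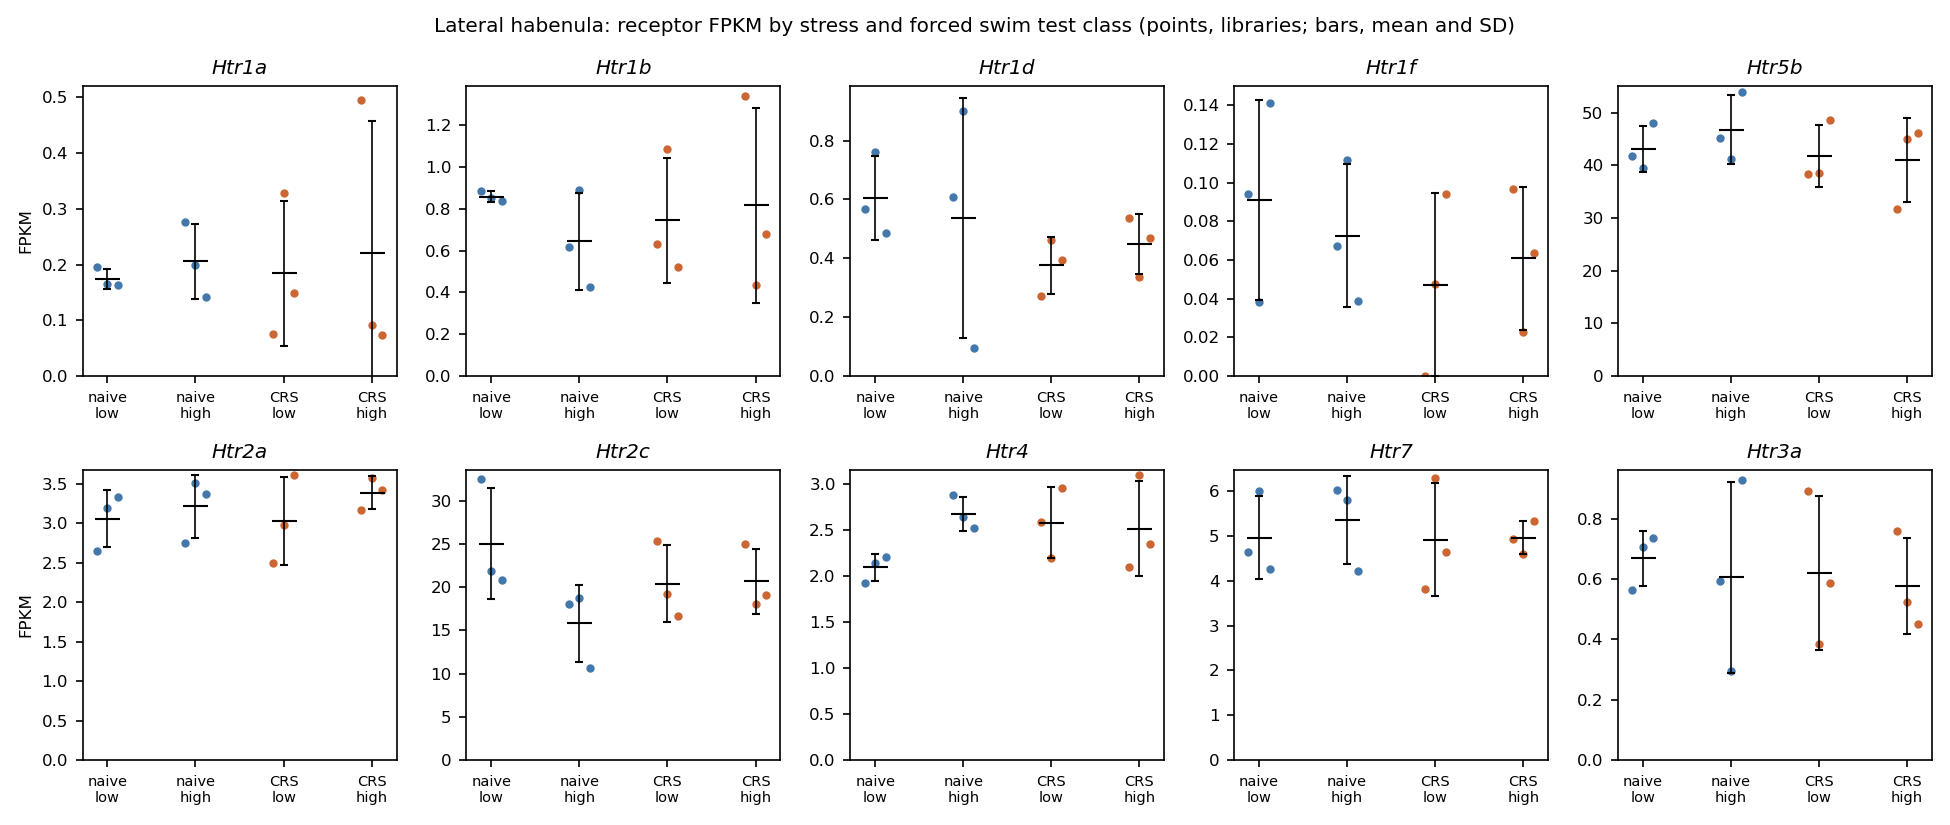
FPKM of each receptor in the 12 LHb libraries by stress and FST class, 3 libraries per class, with means and SD. Htr2c and Htr4 are the panels in which naive low and naive high do not overlap, as they do not for 21.5% of all genes.

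**Figure D5:**
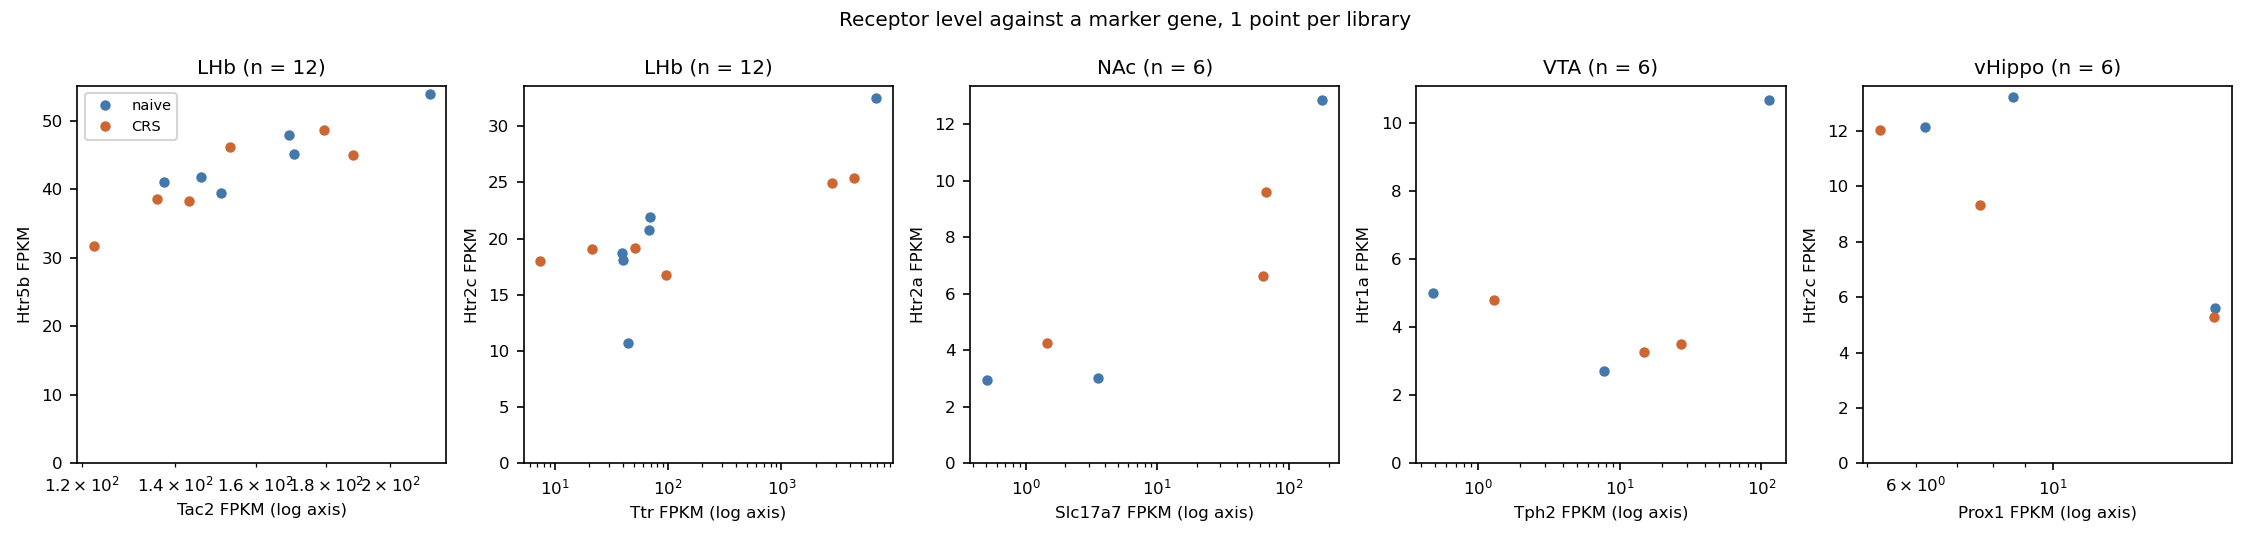
FPKM of a receptor against a marker gene on a log axis, 1 point per library (blue, naive; orange, CRS). From left, Htr5b rises with Tac2 in the LHb, Htr2c is highest in the 3 LHb libraries with Ttr at 2797 or more, Htr2a is highest in the 3 NAc libraries with Slc17a7 at 63.1 or more, Htr1a is highest in the VTA library with Tph2 at 113, and Htr2c is lowest in the 2 vHippo libraries with Prox1 at 18.3.

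The rest of the serotonin system was followed through 5 lists: the other receptors, the enzymes and transporters of serotonin, the transcription factors of serotonin neurons, receptor partners with the RNA-editing enzymes, and the G proteins with their effectors. For CRS against naive, 0 of 57 tested genes passed in the LHb (edgeR, 7 at an unadjusted p under 0.05), and 0 of 53 to 56 passed in each other region, with 0 to 9 at an unadjusted p under 0.05. The median log2 fold change of the 57 LHb genes was -0.01, beside -0.0043 for all genes. In the FST classes 1 gene of the 57 passed, in CRS high and in CRS low against naive low, where 3.67% and 2.19% of all genes passed, mostly upward (773 of 854 and 492 of 510). That gene, Mpdz, a multi-PDZ scaffold known to bind the tail of the Htr2c receptor, was at 6.84, 6.25 and 6.23 FPKM in naive low, 8.19, 7.94 and 7.79 FPKM in CRS low and 8.41, 8.31 and 7.88 FPKM in CRS high. It rose by 0.36 ± 0.07 on the log2 scale in CRS high (edgeR adjusted p = 0.011) and by 0.31 ± 0.07 in CRS low (adjusted p = 0.0345) against naive low. Naive high, at 8.23, 6.93 and 7.36 FPKM, lay above naive low by 0.26 ± 0.07 (adjusted p = 0.0665). Leaving out the 4 libraries with pancreas transcripts left 1 library in CRS high, CRS high 1, which was high in Ttr, so only effect sizes are given. The differences in Mpdz from naive low were then 0.40 in CRS high and 0.33 in CRS low. Without naive low 3 they were 0.34 (adjusted p = 0.0582) and 0.28 (adjusted p = 0.166), and the CRS low call also ended without CRS high 1, any CRS low library or naive low 2.

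By region, 49 of the 58 tested genes of the 5 lists passed, beside 49.2% of all genes. The counts were 21 of 25 for G proteins and effectors, 13 of 15 for enzymes and transporters, 8 of 10 for partners and editing enzymes, 5 of 5 for transcription factors and 2 of 3 for other receptors. The 5 of smallest p were Adcy5, Gnal, Slc18a2, Plcb4 and Plcb1. Adcy5, the striatal adenylyl cyclase that Gs and Gi/o receptors act on, was at 108 ± 28 FPKM in the NAc and 17.0 to 23.1 on average in the other 4 tested regions. Gnal, the Gs-like protein of striatal neurons, was at 65.4 ± 11 FPKM in the NAc and 17.7 or less in the other 4. The phospholipases that Gq receptors use divided the regions: Plcb1 was at 23.9 ± 4.8 FPKM in the NAc, 23.0 ± 4.9 in the mPFC and 20.3 ± 1.6 in the vHippo but 6.4 ± 0.69 in the VTA, and Plcb4 was at 17.5 ± 3.4 FPKM in the VTA and 2.82 ± 0.88 in the vHippo. In the LHb, with Htr2c high, Plcb4 was at 14.5 ± 1.5 FPKM and Plcb1 at 3.24 ± 0.5. Slc18a2, which loads serotonin and dopamine into vesicles, was at 84.5 ± 70 FPKM in the VTA and 6.45 or less in the other 4.

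The genes whose levels were most like a receptor's over the 30 libraries of the 5 regions were taken as the 3 of highest Pearson r among 12086 genes with a mean FPKM of at least 1. These are descriptions, since the libraries share regions and scaling. Htr3a had the closest matches, Plch2, Slc26a4 and Tbata, all with r = 0.93. Htr7 went with Ankrd55, Atp13a4 and Timp4 (r = 0.91, 0.90 and 0.90), Htr1d with Clmp, Entpd3 and P2ry1 (0.90, 0.88 and 0.88), and Htr1b with Rap1gap, Erich3 and Dach1 (0.88, 0.88 and 0.86). Htr1f went with Dock3, Meis2 and Tacc1 (0.88, 0.84 and 0.83), Htr4 with Pde11a, Npy2r and Sipa1l3 (0.87, 0.84 and 0.81), Htr5b with Rnf182, Pcdh20 and Gpr161 (0.86, 0.86 and 0.85), and Htr2c with Zfp503, Inpp5f and Dlk1 (0.81 each). Htr1a and Htr2a had the lowest best matches, Sulf2, Prdm8 and Ifngr2 (0.75, 0.71 and 0.71) and Cpped1, H1f11-ps and Pcsk2 (0.72, 0.70 and 0.68). Among the receptors themselves, the next highest r after Htr1b with Htr1d was 0.62, for Htr4 with Htr5b, and the lowest was -0.74, for Htr1f with Htr7.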

How the data were processed

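The deposited tables, per the file headers, hold raw read counts per gene and FPKM values that the authors computed. Per the submitters' processing notes, cutadapt 1.9, HISAT2 2.0.4, StringTie 1.3.4d and edgeR were used and GRCm39 is named. The gene starts of the 5-region table equalled GENCODE M21 on GRCm38 for 99.52% of 40748 genes, against 2.181% of 34900 genes in the LHb table, so coordinates are printed from the former only. The counting strand is not given in the sources used here. Of the count columns, 18 matched no sample and were not used.

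Tests used the counts and edgeR 4.0.16 under R 4.3.3 (TMM scaling, filterByExpr, quasi-likelihood F test, Benjamini-Hochberg adjustment over all genes tested, threshold 0.05). All 12 LHb libraries entered 1 fit, each other region its own, and the 30 libraries of the 5 regions 1 fit for region differences. The fit was tested on simulated data. Alternatives were DESeq2 1.42.0, limma 3.58.1 on log2(FPKM + 0.1), RLE scaling, no filter, a replicate block, naive libraries only, and leaving out libraries. Total counts ranged from 53143878 to 81384893 per library.

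The members and lists were chosen with earlier results of these data known. All 10 members were named in every comparison. Genes of the 5 lists were named where they passed the threshold (all if 10 or fewer, otherwise the 5 of smallest p), and marker genes where a member's result turned on them. Same-numbered libraries deviated together (correlation over 0.1 in every pair) between naive and CRS mice of the NAc alone among the 5 regions, at 0.111 to 0.394, and between naive low and CRS high in the LHb, at 0.124 to 0.404, and the block changed no call of a member there. No 2 libraries of a group agreed within sampling noise, with a chi-square per degree of freedom of 22.3 or more.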

Additional observations from a re-analysis of the deposited data

How the results depend on the processing

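No receptor passed in any CRS or FST comparison under DESeq2, limma, RLE scaling, no filter or any left-out library, apart from 1 case under the replicate block. With it, 1 receptor, Htr2c, passed for naive high against naive low in the LHb (log2 fold change -0.62, edgeR adjusted p = 0.0381). The same-numbered libraries of these classes had correlations of 0.134, 0.147 and 0.0519, all positive but not over 0.1 in every pair. The labels do not say whether same-numbered libraries were paired. Leaving out each library in turn gave 0 to 0 receptors in those comparisons, 8 to 10 for region differences and 51 to 58 for region pairs. DESeq2 called 10 receptors by region and limma 9. In the naive libraries only, 30 region pairs passed against 55, with fewer libraries in the fit. Leaving out the libraries whose markers stand apart (VTA naive 2 and 3, NAc naive 1, mPFC CRS 3) reversed 1 value: Htr1a in the mPFC minus the VTA was 0.56 (edgeR adjusted p = 0.049) against -0.12, and the cause was not tested. Of 6860 refits of single receptors, 155 lost a call, 42 gained one and 277 changed sign without passing in either fit. All settings that leave out several libraries by their markers were chosen after seeing the data. Over all genes, CRS against naive in the LHb called 273 with edgeR, 758 with DESeq2 and 2 without the libraries with pancreas transcripts. Precision was limited by counts for Htr1f in the LHb (0 to 24 counts) and for Htr1d in the vHippo (4 to 40 counts).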
